A study of Rattus norvegicus with 20 samples.

Results

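10 genes of calcium and potassium handling in the artery wall were followed across 6 treatment groups of rats: Pln, Atp2a2, Cacna1c, Cacna1d, Cacna1h, Itpr1, Ryr2, Atp2b1, Kcnma1 and Kcnmb1. Their members on the array were all probes whose single gene symbol in the platform's probe annotation is one of these 10 names, which gave 20 of 35129 probes. Of these, 13 probes of 9 genes were bright enough to be tested, and 7 were not: both Cacna1d probes, 2 of the 3 Ryr2 probes, and 1 probe each of Cacna1h, Kcnma1 and Atp2a2. The genes were selected on biological role with earlier results of these data in view. The differences of Pln from vehicle under ethinyl estradiol and equilin were among the values known then, so they are given as a description, with no test. Which values of the other members were in view is not recorded, so their calls and counts cannot be taken as independent of the choice.

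Mesenteric arteries came from female Sprague Dawley rats that had all lost their ovaries at 4 weeks of age, rested for 2 weeks and then received a daily gavage for 3 weeks, which made them 9 weeks old at collection. The control group received the vehicle, 20% 2-hydroxypropyl-β-cyclodextrin, and held 4 rats. Ethinyl estradiol, estradiol benzoate and equilin were each given at 0.15 mg/kg to 3 rats, and the selective estrogen receptor modulators (SERMs) tamoxifen and raloxifene at 3 mg/kg to 4 and 3 rats. RNA of each rat was hybridised to 1 single-colour CodeLink whole genome array, 20 arrays in all, and the number of arrays limits the precision. No intact rats were among the samples used here, so vehicle stands for the state without ovarian hormone. Ethinyl estradiol is estradiol with an added ethynyl group, estradiol benzoate is an ester of estradiol, and equilin is an equine estrogen with an additional double bond in the ring beside the phenol ring. Tamoxifen is a triphenylethylene and raloxifene a benzothiophene.

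Arterial smooth muscle contracts when calcium in the cytosol rises. Calcium enters through voltage-gated channels of the L type (Cacna1c, Cacna1d) and T type (Cacna1h), and leaves the sarcoplasmic reticulum through inositol trisphosphate receptors (Itpr1) and ryanodine receptors (Ryr2). It is pumped back into the reticulum by SERCA2 (Atp2a2), which phospholamban (Pln) inhibits, and out of the cell by the plasma membrane pump (Atp2b1). Local calcium release opens large-conductance potassium channels, built from a pore subunit (Kcnma1) and a smooth muscle beta subunit (Kcnmb1), and the potassium current that follows hyperpolarises the cell and favours relaxation.

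Values are given as centred log2 intensity, the log2 of the deposited intensity plus an offset of 0.103, minus the array's median, so 0 is the median probe and 1 unit is a doubling. Differences carry the standard error of a limma fit over all 20 arrays, and a probe passed where its Benjamini-Hochberg adjusted p over all 24562 tested probes was under 0.05. The level of one probe is not set against that of another. By their deposited medians the arrays fell into sets A and B, for which the labels have no name. In set A were vehicle array 1 and every estrogen array, with medians from 1.0408 to 1.0612, and in set B the remaining vehicle arrays together with every SERM array, with medians from 1.0007 to 1.015. A class of 384 regularly spaced unnamed probes separated the sets. Within a set, each estrogen can be compared with vehicle array 1 alone, and each SERM with vehicle arrays 2, 3 and 4; within-set differences are given with the summary of each compound and beside many of the single differences. Estrogens were compared with each other inside set A, and the SERMs inside set B. Raloxifene array 3 stood apart from all others, with a mean correlation of 0.842 with them over the tested probes. Values without it are given with the summaries and beside many, but not all, of the single calls and directions that it changed.

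**Figure D1:**
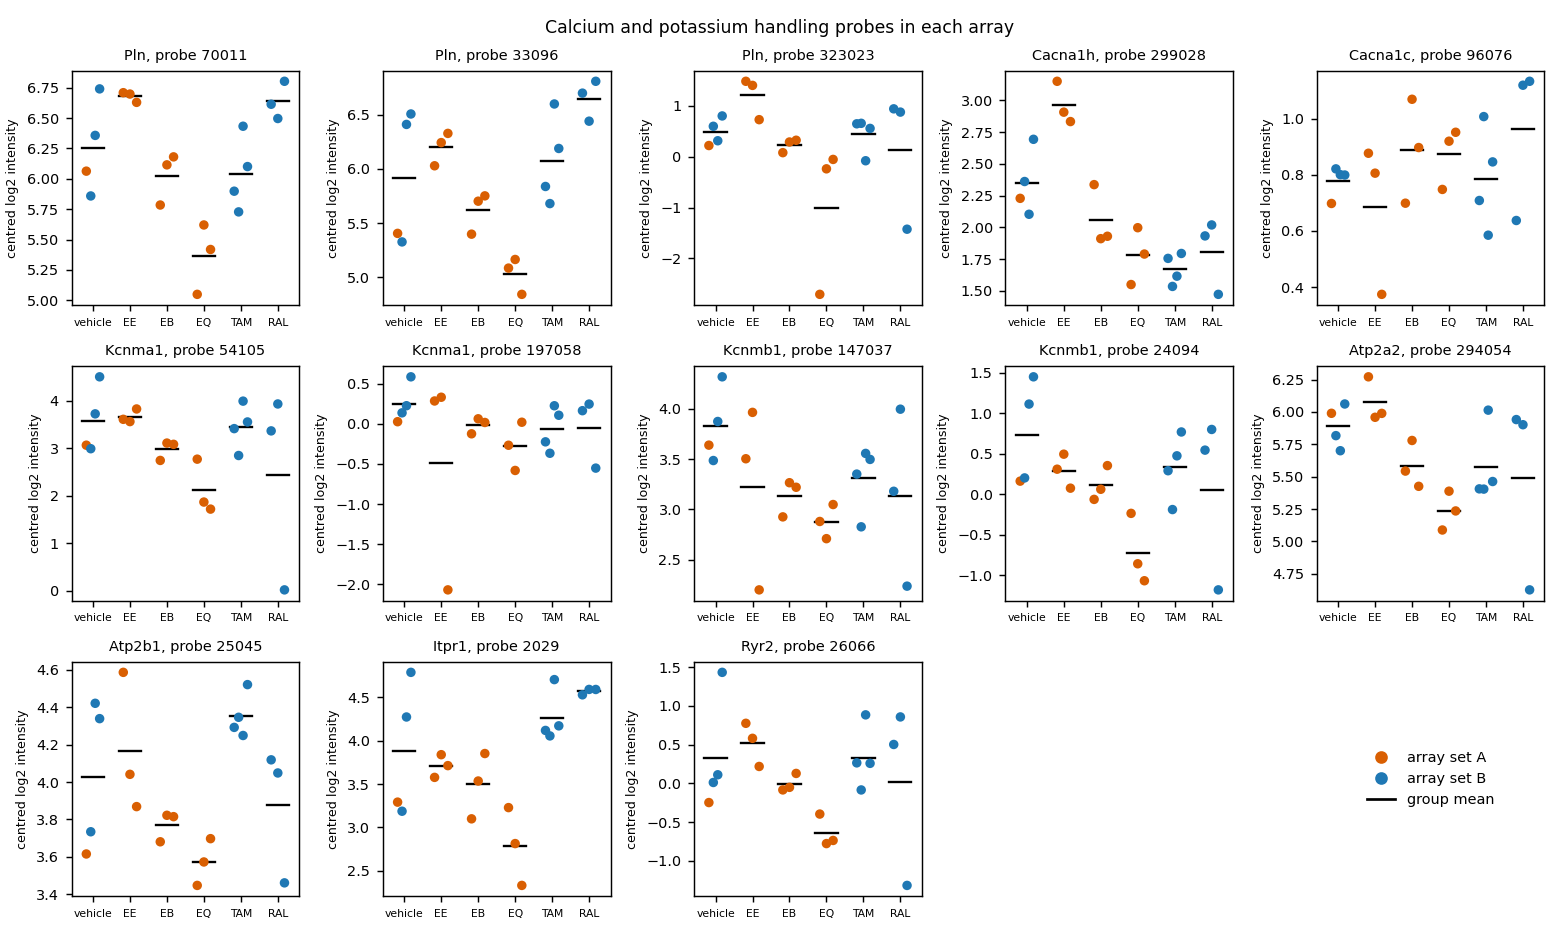
Centred log2 intensity of the 13 tested probes in each array, by group (EE ethinyl estradiol, EB estradiol benzoate, EQ equilin, TAM tamoxifen, RAL raloxifene); points are arrays, coloured by array set, and bars are group means. In 10 of the 13 panels all 3 equilin arrays lie below all 4 vehicle arrays, and raloxifene array 3 lies far below its 2 fellows in several panels, such as Kcnma1 at 0.02 against 3.37 and 3.93.

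The pump of the sarcoplasmic reticulum and its inhibitor are shown first with the sequence just before the transcription start, since both had lower values under equilin. RefSeq (GRCr8) holds a start for 9 of the 10 members; Cacna1h was not matched. The 250 bases before the start are given 5′ to 3′ on the gene's strand, with the CCAAT box in capitals, and the Pln start used lies inside the span that RefSeq annotates for the gene. The Pln window is chr20:33172244-33172493 on the plus strand, with a GC content of 44%, and its CCAAT lies at -98 to -94, counted back from the start. The Atp2a2 window is chr12:39733269-39733518 on the plus strand, with a GC content of 80%, and its CCAAT lies at -79 to -75.
Pln: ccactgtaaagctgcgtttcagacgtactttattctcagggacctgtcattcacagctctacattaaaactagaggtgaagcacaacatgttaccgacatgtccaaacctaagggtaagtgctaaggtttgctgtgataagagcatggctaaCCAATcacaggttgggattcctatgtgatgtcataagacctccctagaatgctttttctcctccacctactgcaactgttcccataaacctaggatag
Atp2a2: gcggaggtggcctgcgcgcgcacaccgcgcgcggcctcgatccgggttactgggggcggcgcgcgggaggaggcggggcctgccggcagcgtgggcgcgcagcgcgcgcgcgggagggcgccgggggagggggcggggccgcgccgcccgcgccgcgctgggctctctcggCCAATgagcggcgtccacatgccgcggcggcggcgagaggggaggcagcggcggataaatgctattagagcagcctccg

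CCAAT, searched on both strands, was found in 3 of the 9 members' windows (Pln, Atp2a2 and Cacna1c) and in 34% of all 33469 RefSeq windows of that length. The palindromic estrogen response element was in 0 of the 9 and in 0.0239% of all windows, and its core GGTCA, which the palindrome contains, was in 1 (Ryr2, at -225 to -221) and in 35.4% of all. The CArG box, the motif of serum response factor, was in 0 of the 9 and in 1.5% of all windows, and TATAAA in 0 of the 9 and in 12.9% of all. These are matches of letters in this window only.

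Phospholamban, which holds SERCA2 back until it is phosphorylated, was lowest in the equilin group on all 3 of its probes. On probe 70011 the vehicle arrays read 6.06, 5.86, 6.36 and 6.74, and the equilin arrays 5.05, 5.62 and 5.42. The ethinyl estradiol arrays read 6.71, 6.70 and 6.63, and the estradiol benzoate arrays 5.78, 6.12 and 6.18. Tamoxifen gave 5.90, 5.73, 6.43 and 6.10, and raloxifene 6.61, 6.50 and 6.80. All equilin arrays thus lay below every other array of the series, and the 3 ethinyl estradiol arrays lay close together. The vehicle group overlapped with both the tamoxifen and the raloxifene group, which did not overlap with each other. In order, the group means (± SD) were 6.68 ± 0.04 for ethinyl estradiol, 6.64 ± 0.15 for raloxifene, 6.26 ± 0.38 for vehicle, 6.04 ± 0.30 for tamoxifen, 6.03 ± 0.21 for estradiol benzoate and 5.36 ± 0.29 for equilin. Of the neighbours in that order, only estradiol benzoate and equilin did not overlap.

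The difference of Pln from vehicle on probe 70011 was -0.89 ± 0.21 under equilin, a level 1.86-fold lower, and -0.70 within array set A. Under ethinyl estradiol it was 0.42 ± 0.21 (0.62 within set A), and under estradiol benzoate -0.23 ± 0.21 (-0.04 within set A). The SERMs differed from vehicle by -0.21 ± 0.19 (tamoxifen) and 0.38 ± 0.21 (raloxifene). A second bright probe, 33096, read 5.41, 5.33, 6.41 and 6.51 under vehicle and 5.08, 5.16 and 4.84 under equilin, so that all equilin arrays again lay below vehicle, with vehicle arrays 1 and 2 the nearest to them. Its difference under equilin was -0.88 ± 0.27, and -0.37 within set A. The third probe, 323023, is dim: vehicle read 0.22, 0.59, 0.31 and 0.80, and equilin -2.70, -0.24 and -0.06. Its equilin difference of -1.48 ± 0.55 leans on the first of these arrays. The 3 Pln probes therefore gave one order of equilin against vehicle and different sizes. For the SERMs the probes differed in direction. Tamoxifen differed from vehicle by 0.16 ± 0.25 on probe 33096 and -0.04 ± 0.51 on probe 323023. Raloxifene differed by 0.74 ± 0.27 on probe 33096 and -0.35 ± 0.55 on probe 323023, the latter 0.43 without raloxifene array 3.

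SERCA2 is the pump that Pln regulates. Atp2a2 on probe 294054 read 5.99, 5.82, 5.70 and 6.06 under vehicle, 6.27, 5.96 and 5.99 under ethinyl estradiol, 5.54, 5.78 and 5.43 under estradiol benzoate, and 5.09, 5.39 and 5.24 under equilin. Tamoxifen gave 5.41, 5.40, 6.01 and 5.46, and raloxifene 5.94, 5.90 and 4.63. Every equilin array was below every vehicle array, with a difference of -0.65 ± 0.25 (-0.75 within set A), which did not pass (limma adjusted p = 0.150). With raloxifene array 3 left out of the fit, which leaves this difference as it is, the adjusted p was 0.0155. The same array decides the raloxifene difference, -0.40 ± 0.25 with it and 0.03 without it. The second Atp2a2 probe, 237081, lay between -3.44 and -1.64 in all arrays and was not tested.

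The T-type channel Cacna1h lay above vehicle under ethinyl estradiol and below it under equilin and both SERMs, without overlap in all 4 cases. On probe 299028 vehicle read 2.23, 2.36, 2.10 and 2.69, ethinyl estradiol 3.15, 2.91 and 2.83, estradiol benzoate 2.34, 1.91 and 1.93, and equilin 1.55, 2.00 and 1.79. Tamoxifen gave 1.76, 1.53, 1.61 and 1.79, and raloxifene 1.93, 2.02 and 1.47. The ethinyl estradiol arrays lay above every other array, while the equilin, tamoxifen and raloxifene arrays lay below all 4 vehicle arrays. The means ran from 2.96 ± 0.17 (ethinyl estradiol) over 2.35 ± 0.25 (vehicle), 2.06 ± 0.24 (estradiol benzoate), 1.81 ± 0.29 (raloxifene) and 1.78 ± 0.22 (equilin) to 1.67 ± 0.12 (tamoxifen). Only the step from ethinyl estradiol to vehicle was free of overlap between neighbours.

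Against vehicle, Cacna1h differed by 0.62 ± 0.18 under ethinyl estradiol (limma adjusted p = 0.116), by -0.57 ± 0.18 under equilin (0.0912), by -0.67 ± 0.17 under tamoxifen (0.162) and by -0.54 ± 0.18 under raloxifene (0.0915); none of the 4 passed. Within array sets the differences were 0.74, -0.45, -0.71 and -0.58, in the same order. Without raloxifene array 3 the adjusted p fell to 0.0488 for ethinyl estradiol, 0.0333 for equilin and 0.0501 for tamoxifen, and the raloxifene difference shrank to -0.37 (adjusted p = 0.418). The second Cacna1h probe, 72055, lay between -3.31 and -1.19 and was not tested.

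The L-type channel Cacna1c, the main entry route for calcium in arterial muscle, showed no such spread. Its probe 96076 read 0.70, 0.82, 0.80 and 0.80 under vehicle and 0.75, 0.92 and 0.95 under equilin, and all 20 arrays lay between 0.37 and 1.13. The differences from vehicle ran from -0.09 under ethinyl estradiol to 0.18 under raloxifene, and the equilin difference of 0.09 had a 95% confidence interval of -0.26 to 0.44. Cacna1d, another L-type pore subunit, was at -0.99 or lower on both probes in every array, below the intensity at which probes were tested.

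The release channels of the store had their lowest means under equilin too. Itpr1, an inositol trisphosphate receptor, on probe 2029 read 3.29, 3.19, 4.27 and 4.79 under vehicle and 3.23, 2.81 and 2.33 under equilin. Ethinyl estradiol gave 3.58, 3.84 and 3.71, estradiol benzoate 3.10, 3.53 and 3.85, tamoxifen 4.12, 4.05, 4.70 and 4.17, and raloxifene 4.53, 4.59 and 4.59. The equilin and vehicle groups overlapped, and vehicle arrays 1 and 2 lay well below arrays 3 and 4. The equilin difference was -1.09 ± 0.32 (2.13-fold lower, limma adjusted p = 0.0662), and smaller within set A, at -0.50. The raloxifene difference was 0.68 ± 0.32 (adjusted p = 0.177) and 0.49 within set B. Without raloxifene array 3 the equilin adjusted p was 0.0382.

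Ryr2, a ryanodine receptor, read -0.25, 0.01, 0.11 and 1.43 under vehicle on probe 26066 and -0.40, -0.78 and -0.74 under equilin. All equilin arrays lay below vehicle, array 1 of each by a narrow margin, and the difference was -0.96 ± 0.42 (limma adjusted p = 0.199) and -0.39 within set A. Under raloxifene the first 2 arrays read 0.50 and 0.86 and the third -1.32. The raloxifene difference was -0.31 ± 0.42 with the third array and 0.35 without it. The 2 other Ryr2 probes lay between -3.50 and -1.76 and were not tested. The plasma membrane pump Atp2b1 on probe 25045 read 3.62, 3.73, 4.42 and 4.34 under vehicle, 3.45, 3.57 and 3.70 under equilin and 4.29, 4.35, 4.25 and 4.52 under tamoxifen. Its equilin difference of -0.45 ± 0.22 (adjusted p = 0.244) came from overlapping groups and was -0.04 within set A. The raloxifene difference of Atp2b1 was -0.15 ± 0.22, and 0.06 without raloxifene array 3.

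Kcnma1 and Kcnmb1, the pore and beta subunits of the large-conductance potassium channel, had their lowest mean under equilin on 3 of their 4 tested probes. Kcnma1 on probe 54105 read 3.07, 2.99, 3.72 and 4.50 under vehicle, 3.61, 3.56 and 3.83 under ethinyl estradiol, 2.74, 3.11 and 3.08 under estradiol benzoate and 2.77, 1.87 and 1.72 under equilin. Tamoxifen gave 3.41, 2.85, 3.99 and 3.55, and raloxifene 3.37, 3.93 and 0.02. The equilin arrays lay below all vehicle arrays, the highest of them narrowly. The difference was -1.45 ± 0.63 (limma adjusted p = 0.194) and -0.95 within set A. Its large standard error includes raloxifene array 3, without which the adjusted p was 0.0157. Under raloxifene the Kcnma1 difference of -1.13 became 0.08 without that array.

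The dimmer Kcnma1 probe, 197058, read 0.03, 0.14, 0.23 and 0.59 under vehicle and -0.27, -0.58 and 0.02 under equilin (-0.52 ± 0.41), and 0.28, 0.33 and -2.07 under ethinyl estradiol, where the third array alone made the mean the lowest of the 6 groups. In the same array Kcnmb1 on probe 147037 read 2.20, against 3.50 and 3.96 in the other 2 ethinyl estradiol arrays. That array also had the highest mean over 10 pancreatic acinar markers, 6.28 against -0.92 and -1.48, and the part of this in the low values was not tested. Vehicle array 1, the only vehicle array of set A, had a mean of 3.45 over these markers. The other vehicle arrays read 0.62, -1.48 and 1.66. Equilin arrays read -0.83 to -0.43, estradiol benzoate -1.53 to 0.40, tamoxifen 1.15 to 3.79 and raloxifene -1.58 to 1.36. The part of this in the differences from vehicle was not tested. The remaining Kcnma1 probe, 114094, lay between -3.13 and -1.02 and was not tested.

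Kcnmb1 on probe 147037 read 3.64, 3.49, 3.87 and 4.32 under vehicle, 2.93, 3.27 and 3.22 under estradiol benzoate and 2.88, 2.71 and 3.05 under equilin. Both of these estrogen groups lay wholly below vehicle, by -0.69 ± 0.38 (limma adjusted p = 0.738) and -0.95 ± 0.38 (0.163). Tamoxifen gave 3.35, 2.83, 3.56 and 3.50, and raloxifene 3.18, 4.00 and 2.24. On the dimmer probe, 24094, vehicle read 0.16, 0.20, 1.12 and 1.45 and equilin -0.23, -0.86 and -1.07. That difference was -1.45 ± 0.40 (adjusted p = 0.0527) and -0.88 within set A, with an adjusted p of 0.0106 without raloxifene array 3. The vehicle arrays of this probe split like those of Itpr1, with arrays 1 and 2 low and arrays 3 and 4 high.

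**Figure D2:**
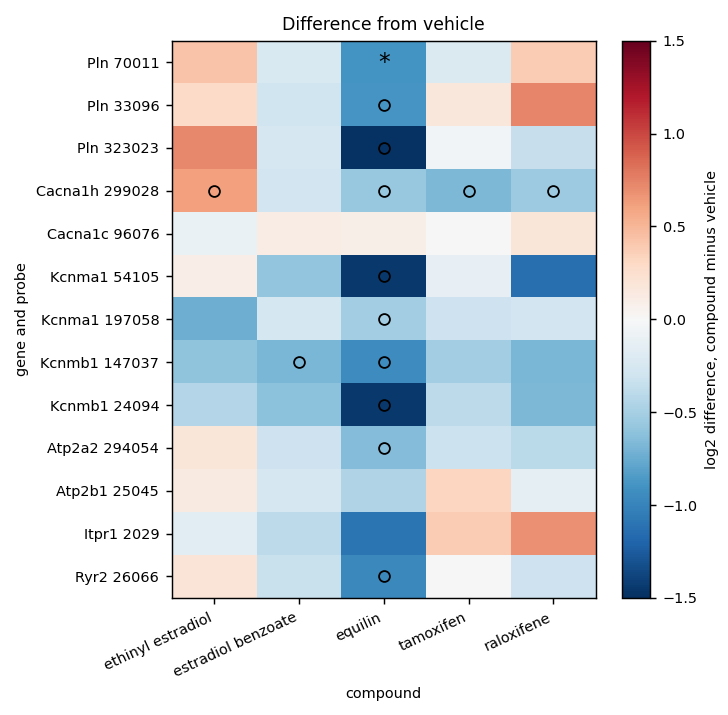
Log2 difference from vehicle of the 13 tested probes (rows) under each compound (columns); blue is lower and red higher than vehicle, a star marks a probe that passed over all tested probes and a circle one that did not pass but whose arrays do not overlap with vehicle. The equilin column is blue for 12 of 13 probes, with Cacna1c at 0.09 the exception, and Cacna1h is red under ethinyl estradiol only among the 4 columns with a circle in its row.

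Equilin gave the lowest members' median of the 5 compounds. Of the 13 tested probes, 12 were below vehicle under equilin, with a median difference of -0.89, against -0.17 over all tested probes, and within set A 12 were below vehicle array 1, with a median of -0.50. Groups did not overlap for 10 of the 13, all lower, where 22.5% of all tested probes were lower without overlap. One probe passed, Pln 70011, lower, where 3.69% of all tested probes passed and 1.94% passed lower; since Pln was picked with this value in view, nothing is read from that call. Of the 10 probes of the other genes, 0 passed (limma), 9 were below vehicle and 7 did not overlap with it, with a median of -0.80. The Pln call was lost when vehicle array 3, vehicle array 4 or any 1 of the 3 equilin arrays was left out, and with a block for array set; without equilin array 1, Kcnmb1 24094 passed in its place. Without raloxifene array 3, 12.5% of all tested probes passed, and among the 10 probes of the other genes 5 did, all lower: Itpr1, Kcnmb1 24094, Kcnma1 54105, Atp2a2 and Cacna1h. Over all tested probes 430 passed higher and 476 lower under equilin, and with quantile normalization 522 and 213. That scaling moved the median of all probes from -0.17 to -0.01, and 12 of the 13 members were below vehicle with either scaling. Without the regularly spaced unnamed probes, 279 (1.15%) passed under equilin, so the share of 3.69% depends on that class. Pln 70011 remained the only member called.

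Under ethinyl estradiol 0 of the 13 passed (1.2% of all tested probes did), 8 were above and 5 below vehicle, and the median difference was 0.14, against -0.05 over all probes. Within set A only 3 of the 13 were below vehicle array 1, with a median of 0.55. Both medians include the 3 Pln probes, all above vehicle, and Pln was picked with this comparison in view. Of the 10 probes of the other genes, 5 were above and 5 below vehicle over all arrays, with a median of 0.00052. Only Cacna1h did not overlap with vehicle, higher, as 5.33% of all tested probes did. Without raloxifene array 3 in the fit, 1 probe passed, higher (3.02% of all probes did). Estradiol benzoate left 0 passed (0.7% of all did), with 12 of 13 below vehicle, a median of -0.29 against -0.12 over all probes, and 1 probe lower without overlap (10.2% of all). Within set A only 7 of the 13 were below vehicle array 1, with a median of -0.04. At an unadjusted p under 0.05, 1 member was higher and 0 lower under ethinyl estradiol, where 5.27% and 8.67% of all tested probes were, and 0 members under estradiol benzoate, where 2.98% were higher and 4.71% lower.

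For the SERMs, given at another dose than the estrogens, the members are set beside vehicle only. Tamoxifen left 0 of 13 passed (0.224% of all tested probes did), with 8 below vehicle, a median of -0.12 against -0.03 over all probes, and 1 probe, Cacna1h, lower without overlap (4.51% of all). Within set B 11 of the 13 were below the 3 vehicle arrays, with a median of -0.28. Raloxifene left 0 passed (2.04% of all did), with 9 below vehicle, a median of -0.31 against -0.02 over all probes, and Cacna1h again the 1 lower without overlap (10.9% of all). Within set B 9 were below vehicle, with a median of -0.37. These summaries rest on raloxifene array 3: without it 4 of the 13 were below vehicle and the median was 0.08. At an unadjusted p under 0.05, 0 members were higher and 1 lower under tamoxifen (4.1% and 4.87% of all tested probes), and 2 higher and 1 lower under raloxifene (11.7% and 15.8%). Without raloxifene array 2 in the fit, 1 probe passed under raloxifene, lower, where 15.4% of all tested probes did. The limma fit with array weights called 3 member probes under tamoxifen and 3 under raloxifene, where it called 15.5% and 17.9% of all tested probes.

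The 3 estrogens, all at 0.15 mg/kg and all in set A, and the 2 SERMs, both at 3 mg/kg and in set B, gave 4 pairs of compounds compared at a matched dose; adjusted p-values over all probes and all 4 pairs together are given beside those over all probes of 1 pair. Ethinyl estradiol against equilin had the largest members' median of the 4 pairs, 1.01, against 0.08 over all probes. Over the 10 probes of genes other than Pln the median was 0.88. Cacna1h was 1.19 ± 0.20 higher under ethinyl estradiol than under equilin (95% confidence interval 0.77 to 1.60, 2.28-fold), with a limma adjusted p of 0.0204 over the pair and 0.0305 over the 4 pairs. For Pln on probe 70011 the difference was 1.32 ± 0.22 (0.84 to 1.79, 2.49-fold), given as a description because the difference of each compound from vehicle was known. The other Pln probes differed by 1.17 ± 0.29 and 2.20 ± 0.59, Atp2a2 by 0.84 ± 0.27 (0.26 to 1.41) and Itpr1 by 0.92 ± 0.34 (0.19 to 1.64), none of which passed. Without raloxifene array 3 in the fit, Atp2a2 (limma adjusted p = 0.0199) and Kcnma1 54105 (0.0475) passed over the pair. Pln 323023 was then under the same threshold, from which nothing is read.

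In this pair 1 of the 10 probes of genes other than Pln passed, Cacna1h, where 0.175% of all tested probes passed and 0.147% passed higher; Pln 70011 was under the same threshold, and nothing is read from that. Groups did not overlap for 7 of the 10, all higher under ethinyl estradiol (17.1% of all tested probes were), and for all 3 Pln probes. The calls rest on few arrays: with Pln counted, 0 of the 13 passed without ethinyl estradiol array 1 or 3 or any 1 of the 3 equilin arrays, 1 without ethinyl estradiol array 2, and 5 without raloxifene array 3 (1.23% of all tested probes). A block for array set left the count at 2. The smallest difference in this pair was that of Cacna1c, -0.19 with an interval of -0.56 to 0.19.

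**Figure D3:**
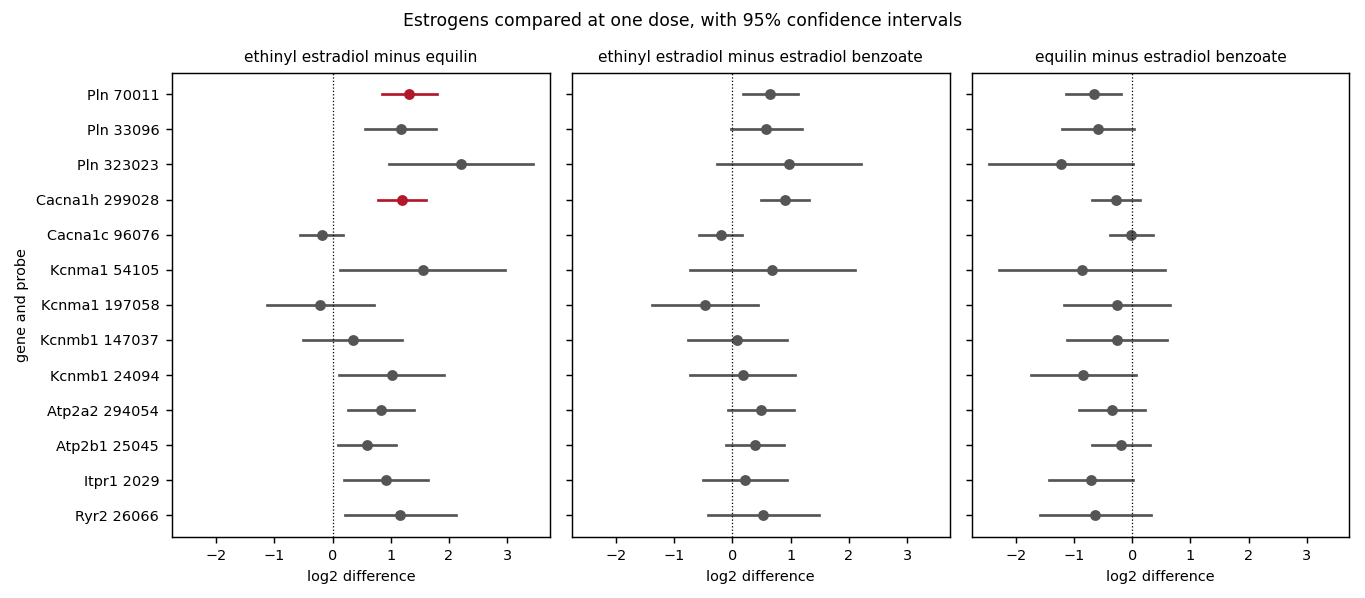
Log2 difference between estrogens at 0.15 mg/kg for the 13 tested probes, with 95% confidence intervals from the limma fit; red marks the 2 with an adjusted p under 0.05 over all tested probes, of which Pln is a description. In the left panel 11 of 13 points lie above 0, led by Pln 323023 at 2.20, and in the right panel all 13 lie below 0 with every interval but that of Pln 70011 reaching 0.

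Ethinyl estradiol against estradiol benzoate gave 0 of 13 passed (0.281% of all tested probes did), with 11 above 0 and 8 without overlap, all higher (15.7% of all). Among the 10 probes of genes other than Pln, 8 were above 0 and 5 were higher without overlap, with a median of 0.30. At an unadjusted p under 0.05, 2 were higher and 0 lower, where 5.23% and 3.81% of all tested probes were. Cacna1h came closest, at 0.91 ± 0.20 (interval 0.49 to 1.32, limma adjusted p = 0.0664 over the pair and 0.127 over the 4 pairs), and passed without raloxifene array 3 (0.0177). Pln on probe 70011 differed by 0.65 ± 0.22 (0.18 to 1.12), and Kcnmb1 on probe 147037 by 0.09 with an interval of -0.77 to 0.94. Equilin against estradiol benzoate gave 0 passed (limma; 0% of all 24562 probes did). At an unadjusted p under 0.05, 0 members were higher and 1 lower, where 1.34% and 2.06% of all tested probes were. All 13 members were lower under equilin, 6 without overlap (13.3% of all), with a median of -0.59 against -0.05 over all probes. Of the 10 probes of genes other than Pln, 3 were lower without overlap, and their median was -0.31. Pln on probe 70011 differed by -0.66 (interval -1.14 to -0.19) and Cacna1h by -0.28 (-0.70 to 0.13). With array weights 6 members passed in this pair, where 16.4% of all probes did.

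Tamoxifen against raloxifene gave 0 of 13 passed (0.00407% of all tested probes, a single probe, did), and 1 was higher and 1 lower at an unadjusted p under 0.05 (8.85% and 4.55% of all). Of the 13, 6 were lower under tamoxifen, with a median of 0.08, and without raloxifene array 3 12 were lower, with a median of -0.30. Pln on probe 70011 was lower under tamoxifen without overlap, with a difference of -0.60 ± 0.21 (interval -1.04 to -0.16, limma adjusted p = 0.370 over the pair and 0.438 over the 4 pairs). Atp2b1 was higher under tamoxifen without overlap, by 0.48 ± 0.22 (0.01 to 0.94), and by 0.27 without raloxifene array 3. Kcnma1 on probe 54105 showed how wide the limits are: its difference of 1.01 had an interval of -0.32 to 2.34, and was -0.20 without raloxifene array 3. Lower and higher probes without overlap made up 3.55% and 4.74% of all tested probes.

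The other genes of calcium and potassium handling were taken from a list of 114 by role, of which 95 had a probe and 72 were tested. Because the list was made with earlier results of these data known, its calls and counts cannot be taken as independent of that choice. Under equilin 8 of the 72 fell and 0 rose (limma, adjusted over all probes; 1.94% of all tested probes passed lower and 1.75% higher), and 26 were lower and 1 higher at an unadjusted p under 0.05, where 15.4% and 6.06% of all probes were. Of these 8, 5 are among the 15 tested genes that the list files under store release and luminal buffering. Among these 5 is Prkg1, which encodes a kinase and not a release channel or buffer. The median over the 72 was -0.34, against -0.17 over all probes. Without the regularly spaced unnamed probes 5 of the list genes passed, where 1.15% of all tested probes did. None of the 8 passed with a block for array set, 0 passed without vehicle array 3, equilin array 2 or equilin array 3, 3 without vehicle array 4, 5 without equilin array 1 and 16 without raloxifene array 3, where 12.5% of all tested probes did.

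Kcnj12, an inwardly rectifying potassium channel, had the largest of these differences, -1.38 ± 0.26 (limma adjusted p = 0.0138): vehicle read -0.61, -0.69, -0.12 and 0.50 and equilin -1.20, -1.72 and -1.91, with no overlap. Prkg1, the cGMP-dependent kinase through which nitric oxide relaxes smooth muscle, fell by 1.31 on the log2 scale, from -0.71, -0.85, -0.36 and -0.41 to -1.89, -1.61 and -2.18. Estradiol benzoate arrays were also low for Prkg1, at -1.68, -2.14 and -1.06, but did not pass. Kcne4, an accessory subunit that restrains voltage-gated potassium channels, read 3.18, 2.87, 3.30 and 3.51 under vehicle and 2.31, 1.76 and 1.68 under equilin, a fall of 1.29. Ethinyl estradiol arrays read 1.96, 2.89 and 1.85 for Kcne4 and tamoxifen arrays 2.34, 2.39, 3.06 and 2.56, which overlap with vehicle; the differences of -0.98 and -0.63 did not pass. Asph, whose products include the store protein junctin, differed by -1.27, from 0.47, 0.56, 1.37 and 1.27 to -0.05, -0.35 and -0.65.

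The other 4 that fell, named after their values were seen, were Casq1 (-1.13 ± 0.25), a calcium buffer of the store; Jph2 (-1.15 ± 0.29), which ties the store to the surface membrane; Hrc (-1.03 ± 0.25), a calcium-binding protein of the store; and Cacna2d1 (-0.95 ± 0.24), an accessory subunit of voltage-gated calcium channels. Within set A the differences of Casq1, Jph2 and Hrc were -0.67, -0.50 and -0.62, while that of Cacna2d1 was -0.82. For Prkg1, Kcne4, Kcnj12 and Asph they were -1.19, -1.26, -0.996 and -0.82. Abcc9 and Kcnj8, the subunits of the vascular ATP-sensitive potassium channel, differed by -0.60 ± 0.19 and -0.67 ± 0.27 and did not pass (adjusted p = 0.0803 and 0.171); both were picked out after their values were seen.

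**Figure D4:**
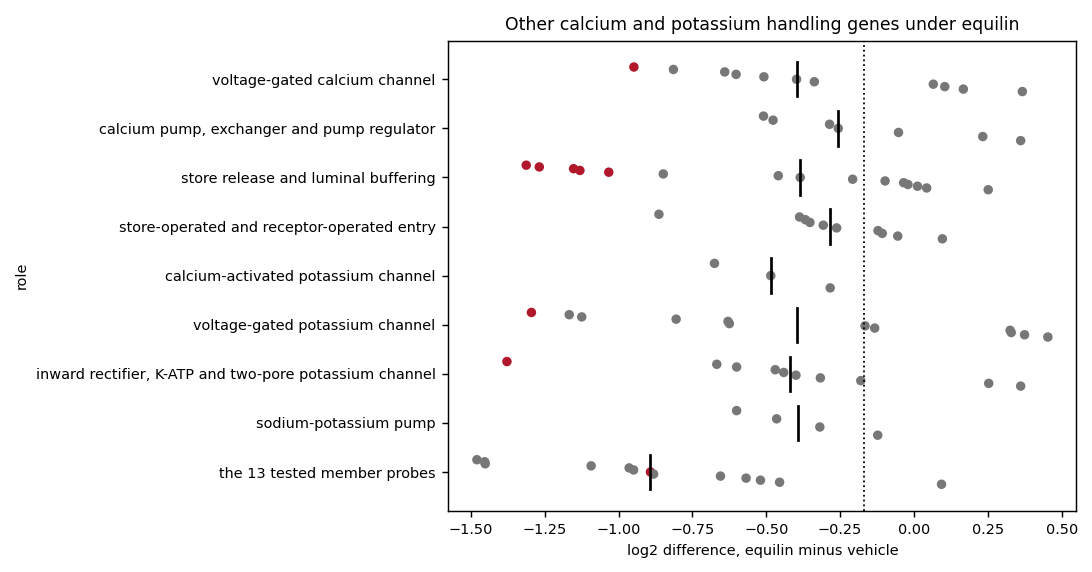
Log2 difference between equilin and vehicle for the 72 other tested genes by role and, in the lowest row, the 13 tested member probes; red points passed over all tested probes, black bars are medians and the dotted line is the median of all tested probes, -0.17. The store release row, in which the kinase Prkg1 is filed, holds 5 red points with Prkg1 included, all between -1.31 and -1.03. The members' median lies at -0.89.

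Few other list genes passed under the remaining compounds. Kcnk5, a background potassium channel, was lower under ethinyl estradiol by -1.14 ± 0.26 (limma adjusted p = 0.0445), with 2.51, 2.31, 2.14 and 2.48 under vehicle and 1.24, 1.98 and 0.44 under ethinyl estradiol. It was the only one of the 72 (0.66% of all tested probes passed lower), and 16 of the 20 fits that left out 1 array called none. Estradiol benzoate called 0 of 72 and tamoxifen 0 of 72; with array weights they called 1 and 12, where 2% and 15.5% of all tested probes passed. At an unadjusted p under 0.05, 4 of the 72 were higher and 17 lower under ethinyl estradiol (5.27% and 8.67% of all tested probes). Under estradiol benzoate 0 were higher and 8 lower (2.98% and 4.71%), and under tamoxifen 1 and 8 (4.1% and 4.87%). Under raloxifene 7 were higher and 12 lower (11.7% and 15.8%).

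Under raloxifene Ryr3, another ryanodine receptor isoform, rose by 1.20 ± 0.24 (limma adjusted p = 0.0323), from 0.15, 0.45, 0.44 and 0.52 to 1.53, 1.38 and 1.87. Orai2, a pore protein of store-operated calcium entry, fell by 0.93, from 1.09, 1.17, 1.20 and 1.23 to -0.22, 0.70 and 0.26. These were 1 higher and 1 lower of 72, where 0.725% and 1.32% of all tested probes passed. Within set B the differences were 1.12 and -0.96, with adjusted p-values of 0.0817 and 0.0691 under the array set block. No list gene passed without raloxifene array 3 or without vehicle array 1, 2 or 3, and 4, 7 and 10 passed without vehicle array 4, raloxifene array 1 and raloxifene array 2, where 5.54%, 9.47% and 15.4% of all tested probes did.

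The tissue label was checked against markers. All 11 smooth muscle and all 9 endothelial markers with a probe were bright enough to be tested, as were all 8 adipocyte markers, although the arteries had been dissected from fat, per the labels. The smooth muscle markers Acta2 and Myocd, with means of -0.26 and -0.71 over all arrays, lay below the median probe. All 10 pancreatic acinar markers with a probe were tested too, as were 7 of 9 neuron, 3 of 4 enteric interstitial and 3 of 4 lymphocyte markers. The neuron marker Prph had a mean of 5.61. Of 11 cardiac and skeletal muscle markers with a probe, 7 were bright enough to be tested: Acta1 and Tnnt3, with mean centred log2 of 3.59 and 3.46 over all arrays, and Nppa, Ckm, Myl1, Myh2 and Tnni3, at 1.05 or lower. Myh7, Tnnt2, Myl7 and Myh4 were too dim to be tested. The mean over the 11 was -0.41 to -0.08 in vehicle arrays and -0.40 to -0.29 under equilin, where Nppa passed higher (0.89, limma adjusted p = 0.0165) and 6 of the 7 were below vehicle. The part of striated muscle RNA in the members' values was not tested. Mean centred log2 over the 11 smooth muscle markers was 4.54 to 4.74 in vehicle arrays, 4.88 to 5.07 under ethinyl estradiol, 4.28 to 4.39 under estradiol benzoate, 4.22 to 4.26 under equilin, 3.88 to 4.63 under tamoxifen and 4.80 to 4.94 under raloxifene. The ethinyl estradiol and raloxifene arrays thus lay above, and the estradiol benzoate and equilin arrays below, all vehicle arrays. Of the 11, 1 passed higher under ethinyl estradiol (Lmod1), 1 lower under estradiol benzoate (Myocd) and 3 lower under equilin (Myocd, Synpo2 and Tpm1). Adipocyte markers averaged 5.44 to 5.76 under vehicle and 5.78 to 5.94 under equilin, endothelial markers 4.71 to 4.85 and 4.50 to 4.56. In such whole-tissue RNA, fewer cells of a type and less RNA per cell cannot be told apart.

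Taken relative to the mean of the 11 smooth muscle markers in the same array, Pln on probe 70011 was 0.83 to 1.36 under equilin and 1.12 to 2.03 under vehicle, which overlap, and 1.63 to 1.77 under ethinyl estradiol, which does not overlap with equilin. Cacna1h on that scale was -2.16 to -1.79 under ethinyl estradiol, -2.67 to -2.26 under equilin and -2.44 to -2.01 under vehicle; ethinyl estradiol still lay above equilin without overlap, and raloxifene, at -3.47 to -2.83, below vehicle. Kcnma1 on probe 54105 was -2.52 to -1.45 under equilin and -1.74 to -0.20 under vehicle, which overlap. Atp2a2 on probe 294054 was 0.87 to 1.13 under equilin and 1.08 to 1.35 under vehicle, which overlap too. None of the probes whose equilin arrays lay wholly below vehicle stayed free of overlap on this scale. Cacna1c, at -3.47 to -3.28 under equilin and -3.96 to -3.74 under vehicle, lay wholly above vehicle. The part of the smooth muscle content in the equilin values was not tested beyond these ranges.

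**Figure D5:**
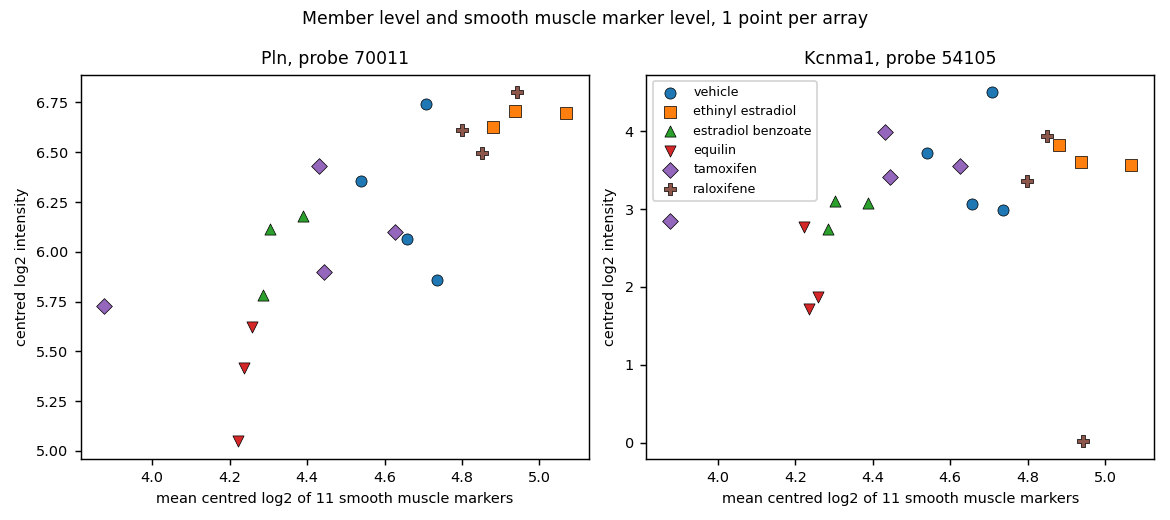
Centred log2 intensity of Pln 70011 (left) and Kcnma1 54105 (right) against the mean centred log2 of 11 smooth muscle markers, with 1 point per array and a symbol per group. Equilin arrays lie at 4.22 to 4.26 on the horizontal axis and lowest for Pln, while raloxifene array 3 combines a high marker mean of 4.94 with the lowest Kcnma1 value, 0.02.

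The genes most like Pln (probe 70011) over the 20 arrays, out of 10191 genes, were Ptgis (Pearson r = 0.926), which encodes prostacyclin synthase, Pdlim3 (0.922), Rbpms (0.911), Rgs6 (0.904) and Isg20 (0.903). Those most like Kcnmb1 (probe 147037) were Atp10a (0.898), Endod1 (0.894), Nexn (0.883), Rbmx (0.870) and Kctd10 (0.866). The arrays share groups, array sets and the outlying raloxifene array, so these values describe this series and carry no test.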

How the data were processed

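The deposited table gives the authors' linear intensity per probe and array; it was background-subtracted and scaled per array, as its values show, and negative values remain. Slides were scanned and analysed with CodeLink and other software, per the labels' protocols, and the sources used here do not say which program made the values. Negative values became 0. After an offset of 0.103, which is 0.1 times the median, log2 values were centred on each array's median. Fold changes are on this offset scale, which understates the change of dim probes. Tests left out the lowest 30% of probes by mean, and 40 probes with 2 or more missing arrays in some group, leaving 24562. limma 3.58.1 (R 4.3.3) fitted 1 mean per group over all 20 arrays, with a variance trend and Benjamini-Hochberg adjustment; the code was tested on simulated data. Gene names come from the platform's probe annotation: 16865 probes carry 1 symbol, 165 several and 18099 none. Replicates are individual rats, per the labels.

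The members, the wider list, the markers, the array sets and the alternatives were chosen with earlier results of these data known. Named were every member probe, up to 4 highest and 4 lowest passing list genes per comparison with vehicle, the remaining passing list genes where so stated, and the 5 genes most like Pln and Kcnmb1. Same-numbered arrays of different groups did not deviate together (median correlation 0.02, range -0.43 to 0.30), so numbers were not taken as pairs. Alternatives were quantile normalization, no centring, other offsets and filters, no variance trend, array weights, fits of 2 groups, blocks for replicate number and array set, leaving out the regularly spaced probes, and leaving out each array. The array set block without raloxifene array 3 was added after seeing the data. Promoter sequences are those of RefSeq, GRCr8; no probe sequence was used.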

Additional observations from a re-analysis of the deposited data

Results flagged for a closer look

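In tamoxifen array 3, Pln on probe 323023 read -0.0826 on the centred log2 scale, apart from the other 3 tamoxifen arrays at 0.55 to 0.65. In the same array Atp2a2 on probe 294054 read 6.01, above the other 3 at 5.40 to 5.46. Both were picked out because the gap to the nearest array was large for a group of 4; chance marks about 1 in 20 such groups, and 26 were examined, of which 2 were marked. The smooth muscle marker mean of that array was 4.43, inside the tamoxifen range.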

How the results depend on the processing

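Counts are of member probes that passed. Percentages in brackets are the share of all tested probes that passed in the same fit. For equilin against vehicle (1) the counts were 0 with quantile normalization, the 2 groups fitted alone, a replicate block, the array set block, and that block without raloxifene array 3. An offset of 0.5 times the median gave 2 (3.73%) and array weights 9 (27.9%). Leaving out 1 array gave 0 to 8 (12.5% without raloxifene array 3). For ethinyl estradiol against vehicle (0) the counts were 1 with quantile normalization (0.965%) and 0 to 1 leaving out 1 array (3.02% without raloxifene array 3). For tamoxifen (0) array weights gave 3 (15.5%). For raloxifene (0) array weights gave 3 (17.9%), and leaving out 1 array 0 to 1 (15.4% without raloxifene array 2). For ethinyl estradiol against equilin (2) the counts were 1 with quantile normalization (0.0896%), 9 with array weights (7.18%) and 0 with the 2 groups alone. The array set block without raloxifene array 3 gave 6 (1.23%), and leaving out 1 array 0 to 5 (1.23% without raloxifene array 3). Ethinyl estradiol against estradiol benzoate (0) gave 1 with quantile normalization (0.334%), 1 with array weights (1.61%) and 1 with the array set block without raloxifene array 3 (1.01%). Leaving out 1 array gave 0 to 1 there (1.05% without raloxifene array 3). Array weights gave 6 for equilin against estradiol benzoate (0), at 16.4%, and 3 for tamoxifen against raloxifene (0), at 5.7%. The replicate block left ethinyl estradiol against equilin at 2; 5 of 20 arrays correlated best with their own number.

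Of the other list genes, ethinyl estradiol against vehicle (1) gave 0 with quantile normalization, no centring, no filter, the lowest 50% left out, array weights, the 2 groups alone, the replicate block, the array set block with or without raloxifene array 3, and without the regularly spaced probes. Leaving out 1 array gave 0 to 3 (0.717% without ethinyl estradiol array 2 and 3.02% without raloxifene array 3). Estradiol benzoate (0) gave 1 with array weights (2%) and 0 to 1 leaving out 1 array (1.45% without vehicle array 1 and 0.859% without raloxifene array 3). Equilin (8) gave 5 with quantile normalization (2.99%), 25 with array weights (27.9%), 4 with the 2 groups alone (0.529%) and 0 with the array set block. It gave 5 without the regularly spaced probes (1.15%) and 1, higher, with the array set block without raloxifene array 3 (1.3%). Leaving out 1 array gave 0 to 16 under equilin (12.5% without raloxifene array 3). Tamoxifen (0) gave 12 with array weights (15.5%). Raloxifene (2) gave 13 with array weights (17.9%), 0 with the 2 groups alone and 0 with the array set block with or without raloxifene array 3. Leaving out 1 array gave 0 to 10 under raloxifene (15.4% without raloxifene array 2). The cause of these shifts was not tested. Of 1360 differences of single member probes from vehicle under these settings, 1352 moved by no more than the larger replicate SD of the 2 groups. The other 8 moved by more. Several settings, such as other filters or no variance trend, leave the difference itself unchanged. For Kcnma1 54105 under raloxifene the SD was 2.11, so the move from -1.13 to 0.08 without raloxifene array 3 did not count. A reversal could be marked only for the called Pln 70011 under equilin, and none was. Stability of the differences is not read from this tally. Dim probes near the offset carry the least precise differences.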
